A study of Mus musculus with 20 samples.

Results

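Gja1, Slc4a4, Sox9, Apoe, Aqp4, Gfap, Aldh1l1, Aldoc, Clu and Fabp7 are 10 genes widely used as markers of astrocytes, and they were followed here in cultures labelled as primary cortical neurons. They were picked by gene symbol, without regard to their values, and all 10 were found in each of the 4 tables of the study, which hold 14700 symbols between them. The cultures came from mouse cortex at embryonic day 15 and were grown for 7 days. Wild-type cultures (WT) and cultures of the ciRS-7 knockout (KO, a deletion at Cdr1as, the gene of a circular RNA that is abundant in neurons) were compared, and the strain label C57BL/6N-Cdr1asem1Nikr was on samples of both genotypes. For 12 h the cells stayed in normoxia (N) with glucose at 25 mM and pyruvate, or were deprived of oxygen and glucose (OGD): oxygen was set to 1% and the medium had neither supplement, a culture model of ischemia. Oxygen and medium therefore changed together. Each of N_WT, N_KO, OGD_WT and OGD_KO was represented by 5 total RNA libraries, given as biological replicates.

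Astrocytes are the glia that clear glutamate and potassium from around synapses, pass metabolites to neurons and wrap blood vessels with their endfeet. In the cortex they arise from radial glia around and after birth, so cultures started from embryonic cortex are mostly neurons and carry some astrocytes and their precursors along. The 10 markers cover different jobs of the cell: Gja1, Slc4a4 and Aqp4 are a channel, a transporter and a water pore of the membrane, Gfap is a filament protein, Sox9 is a transcription factor, Aldoc and Aldh1l1 are enzymes, and Apoe, Clu and Fabp7 carry lipids outside or inside the cell.

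Reads recovered from the tables ranged from 7071506 to 16658617 per library, and a marker had between 42 and 9018 reads in a library. Cdr1as had 545 to 1912 reads in the 10 WT libraries and 2 to 16 in the 10 KO libraries, so the targeted locus matched the genotype labels in all 20. The libraries were unequal in spread. Those numbered 1 and 3 (8 libraries of the labelled batches 1, 2 and 3.2) deviated from the other 4 libraries of their group with an SD across genes of 0.1 to 0.17 log2, and those numbered 2, 4 and 5 (12 libraries of batches 3.1 and 3.3) with 0.33 to 0.52. Within each group, the squared difference per gene was set against that of sampling noise (median over genes). It was 1.57 to 2.15 times as large for libraries 1 and 3 and at least 6.54 times for all other pairs, so no pair agreed within sampling noise. Library 3 also lay close to the mean of libraries 2, 4 and 5: the SD of that difference was 0.073 to 0.111 log2 over genes with at least 200 reads in every library, where independent libraries of that spread would give at least 0.194 to 0.239. The p-values below assume independent libraries of 1 group, which these values do not bear out, and the cause was not tested. Counts are therefore also given for the batches apart.

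The label was checked against markers. The neuron genes looked up (14 of 14 measured, among them Map2 and Tubb3) summed to 6580 to 7910 CPM (reads of a gene scaled to the size of its library) in N_WT, the 10 astrocyte markers to 809 to 1090 CPM, the other astrocyte genes looked up (22 of 28 measured) to 2760 to 3060 CPM and the radial glia and progenitor genes (21 of 21) to 2960 to 4110 CPM. These sums depend on how many genes a list holds, and Slc1a3 counts both among the other astrocyte genes and among the progenitor genes. Of the microglia genes looked up, Cx3cr1, P2ry12, Csf1r and C1qa, which define these cells, were in neither the WT nor the KO table of OGD against N. Among the further astrocyte genes looked up, S100b, Gjb6, Agt, Gpr37l1 and Slc14a1 were in neither of these tables.

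Under OGD 6 of the 10 astrocyte markers rose in WT cultures and 5 of the 10 rose in KO cultures, by 1.52- to 2.09-fold. Gja1, Slc4a4, Sox9, Apoe and Aldoc passed the test in both genotypes, and Aldh1l1 in WT. Gfap, the filament protein by which astrocytes are often stained, fell in WT by 0.47 on the log2 scale (SE 0.18, n = 5 against 5) and was the lone marker that fell. Aqp4, Clu and Fabp7 did not pass the test in either genotype. The test was limma on log2 CPM with Benjamini-Hochberg adjustment over all genes of a table, two-sided, and a gene was called at an adjusted p under 0.05. Since bulk RNA was measured, more cells of a type and more RNA per cell cannot be told apart.

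Many genes moved under OGD, and the markers have to be read against that background. In WT 21.6% of 14235 genes were called higher and 22.8% lower, and in KO 21.0% of 14375 genes were called higher and 19.9% lower. The median log2 fold change was 0.64 over the 10 markers and -0.03 over all genes in WT, and 0.59 and 0.0 in KO. The 5 OGD libraries lay wholly above the 5 N libraries for Gja1, Slc4a4, Apoe and Aldoc in WT and for Gja1, Slc4a4 and Aldoc in KO, and wholly below for no marker. Over all genes, 13.9% had OGD wholly above and 13.1% wholly below in WT, and 13.4% and 12.4% did in KO. The call counts depend on the libraries. With libraries 1 and 3 alone, 2 a group, 8 markers were called in WT and 7 in KO. Libraries 1 and 3 are the pair most alike in each group, so p-values of fits to them alone may be too small. With libraries 2, 4 and 5 alone, 3 a group, 4 markers were called in WT and 1 in KO. The calls over all genes shifted alike: libraries 1 and 3 alone gave 27.8% higher and 29.5% lower in WT and 29.1% and 27.7% in KO, and libraries 2, 4 and 5 alone 8.01% and 8.93% in WT and 8.28% and 8.01% in KO.

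**Figure D1:**
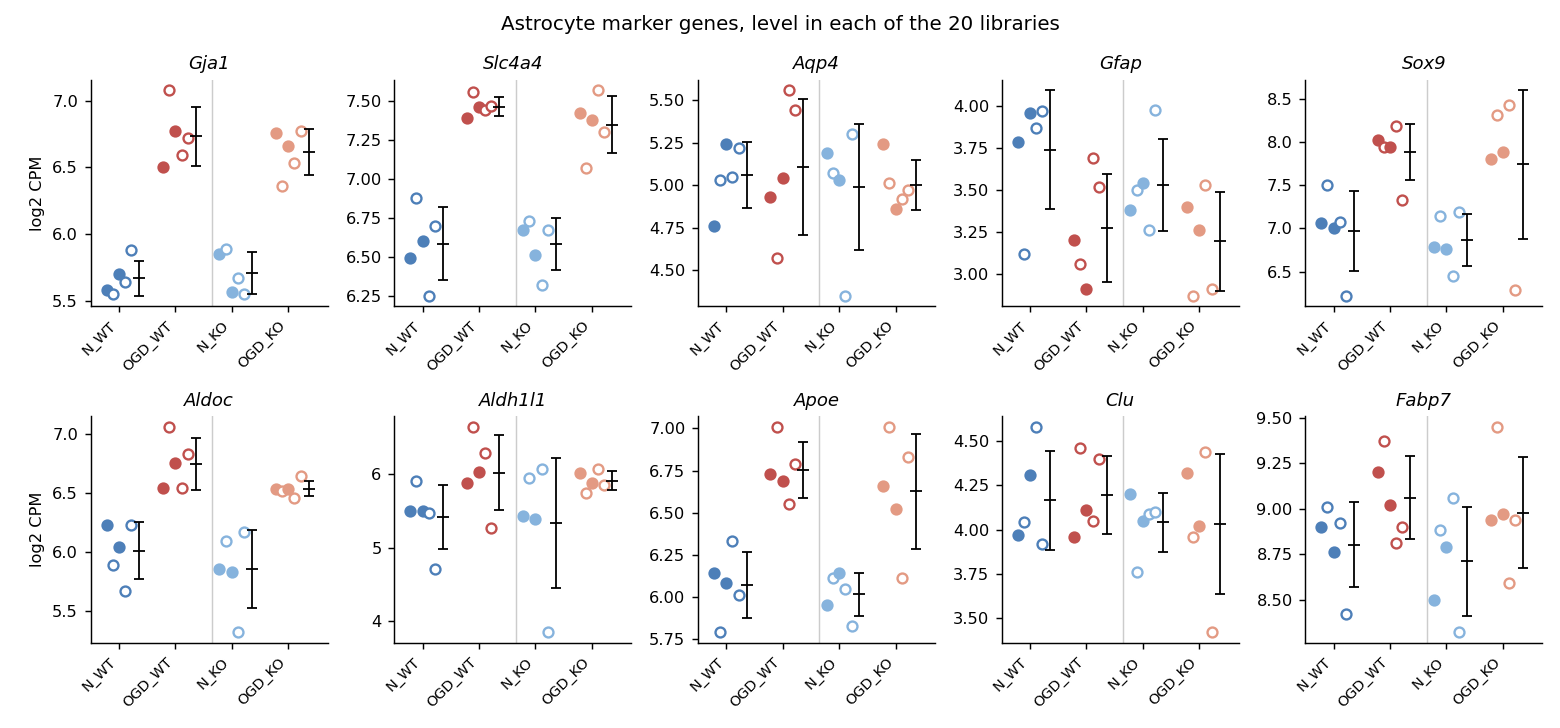
Level of each marker (log2 CPM, vertical axis) in every library of the 4 groups. Filled points are libraries of batches 1, 2 and 3.2, open points those of batches 3.1 and 3.3, and the bar is the mean ± SD (n = 5); WT and KO come from separately scaled tables, divided by the grey line. Gja1, Slc4a4 and Aldoc separate the OGD from the N libraries in both genotypes, Gfap sits lower under OGD with overlap, and Aqp4 and Clu overlap widely.

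Reference promoters came from a table of RefSeq promoters (GRCm38.p6, the build of the files), and windows were taken for 7 of the 10 markers. No window was taken for Sox9, Aqp4 and Clu, so their promoters were not searched. This does not show that the table lacks them. The window ran from 250 bases before to 10 bases after a start, and for genes with several starts the start nearest the 5′ end of the GENCODE gene was taken. The start lay 64366 bases from that end for Aldh1l1 and 3712 bases for Gfap, so these windows may not be at the main start. The letters searched, on both strands and after the values had been seen, were ACGTG and GCGTG (the core that hypoxia-inducible factors bind), TGANTCA (the AP-1 site) and TTCNNNGAA (the STAT site). The promoters of Gja1, Slc4a4 and Aldoc, the markers whose OGD and N libraries did not overlap in both genotypes, and of Gfap, the marker that fell, are shown 5′ to 3′ with matches in capitals.
Gja1 (chr10:56377050-56377309, plus strand): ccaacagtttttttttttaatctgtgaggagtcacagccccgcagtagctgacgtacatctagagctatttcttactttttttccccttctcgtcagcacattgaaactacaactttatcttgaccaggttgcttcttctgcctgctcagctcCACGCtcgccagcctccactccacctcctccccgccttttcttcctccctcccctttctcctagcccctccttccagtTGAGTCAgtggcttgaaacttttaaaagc
Slc4a4 (chr5:88887010-88887269, plus strand): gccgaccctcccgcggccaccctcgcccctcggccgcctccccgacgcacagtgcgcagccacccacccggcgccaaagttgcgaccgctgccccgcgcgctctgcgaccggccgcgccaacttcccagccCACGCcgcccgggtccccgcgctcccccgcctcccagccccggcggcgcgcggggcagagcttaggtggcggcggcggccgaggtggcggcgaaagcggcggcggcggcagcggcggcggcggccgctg
Aldoc (chr11:78322823-78323082, plus strand): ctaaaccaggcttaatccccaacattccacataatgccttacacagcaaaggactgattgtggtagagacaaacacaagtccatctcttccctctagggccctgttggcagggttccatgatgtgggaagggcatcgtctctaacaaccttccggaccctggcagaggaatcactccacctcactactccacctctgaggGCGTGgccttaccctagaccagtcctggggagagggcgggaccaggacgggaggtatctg
Gfap (chr11:102897191-102897450, minus strand): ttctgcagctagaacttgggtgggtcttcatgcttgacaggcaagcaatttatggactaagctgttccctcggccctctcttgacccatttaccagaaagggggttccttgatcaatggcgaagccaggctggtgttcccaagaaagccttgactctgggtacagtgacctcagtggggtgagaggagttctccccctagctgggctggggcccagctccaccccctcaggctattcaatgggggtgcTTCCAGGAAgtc

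A hypoxia core was in the windows of Gja1, Slc4a4 and Aldoc, each time as GCGTG or its reverse complement, and in none of those of Apoe, Gfap, Aldh1l1 and Fabp7. Of 32851 promoter windows of this length in the RefSeq table, 39.7% held ACGTG or GCGTG. The AP-1 letters were in the Gja1 window, 19 bases before the start, and 7.03% of all windows held them. The STAT letters were in the Gfap window, spanning the start, and 7.33% of all windows held them. They also occurred 2 times in the window of a second Aldoc start, which is not shown. With 7 promoters these matches describe letters, not sites in use.

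Among the membrane proteins Gja1 and Slc4a4 rose under OGD and Aqp4 did not pass the test. Gja1 encodes connexin 43, which forms the gap junctions that join astrocytes into a network. In N_WT it was at 5.58, 5.55, 5.7, 5.64 and 5.88 log2 CPM in libraries 1 to 5, and in OGD_WT at 6.5, 7.08, 6.77, 6.59 and 6.72. The lowest OGD library was above the highest N library, and the log2 fold change of 1.06 (SE 0.14, 95% confidence interval 0.76 to 1.36, adjusted p = 5.94e-06 by limma) was the largest of the 10 markers. In N_KO it was at 5.85, 5.89, 5.57, 5.67 and 5.55, and in OGD_KO at 6.76, 6.36, 6.66, 6.53 and 6.77. The KO groups did not overlap either, and the log2 fold change was 0.91 (SE 0.14, adjusted p = 5.89e-05 by limma). All 23 alternative fits of each of these comparisons called Gja1 higher.

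Slc4a4 encodes NBCe1, the sodium bicarbonate cotransporter by which astrocytes move acid and base equivalents across their membrane. Libraries 1 to 5 stood at 6.49, 6.88, 6.6, 6.25 and 6.7 log2 CPM in N_WT and rose to 7.39, 7.56, 7.46, 7.44 and 7.47 in OGD_WT. The OGD_WT libraries were close together, with an SD of 0.06 against 0.24 in N_WT, and the log2 fold change was 0.88 (SE 0.14, adjusted p = 4.7e-05 by limma). KO libraries went from 6.67, 6.73, 6.51, 6.32 and 6.67 in N to 7.42, 7.07, 7.38, 7.57 and 7.3 under OGD. Again the groups did not overlap, with a log2 fold change of 0.77 (SE 0.14, adjusted p = 0.000391 by limma). With libraries 2, 4 and 5 alone the KO change was 0.74 with an adjusted p of 0.107 in limma.

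Aqp4 encodes the water channel of astrocyte endfeet, which is held there by the dystrophin complex. Its level lay between 4.76 and 5.24 log2 CPM in N_WT and between 4.57 and 5.56 in OGD_WT, with a log2 fold change of 0.05 (95% confidence interval -0.31 to 0.41). In N_KO it ranged from 4.35 to 5.3 and in OGD_KO from 4.86 to 5.24, and the difference was 0.01 (-0.34 to 0.36). These intervals leave room for a change of up to about 0.4 log2 in either direction. The OGD level was higher in 3 of 5 numbered WT pairs and 2 of 5 KO pairs. Such pairs are N and OGD libraries of the same number. Deviations of paired libraries from their group means did not move together, so counts of pairs here and below are descriptions.

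Relatives of the membrane markers did not all follow them. Of the other connexins and pannexins, 4 were measured and 3 fell in both genotypes: Gjd2 (connexin 36, the gap junction protein of neurons) by 0.63 in WT and 0.89 in KO, Panx1 by 0.44 and 0.49, and Panx2 by 0.58 and 0.43 on the log2 scale. With libraries 2, 4 and 5 alone 0 of these were called in WT and 1 in KO. Gjc1, the remaining one, was at 0.09 in WT and 0.15 in KO and did not pass the test. In the bicarbonate transporter family the neuronal members Slc4a8 (-1.04 in WT, -1.01 in KO) and Slc4a10 (-0.83, -0.78) fell, while 1 of the family rose in each genotype, Slc4a7 in WT (0.65) and Slc4a2 in KO (0.37). The Slc4a2 call was lost with the replicate number as a block (adjusted p = 0.0832 by limma), and no gene of the family was then called higher in KO. Of 7 genes of other aquaporins, the dystrophin complex and its partners, Sntb1 rose by 0.74 in WT and 0.82 in KO and Dmd by 0.58 and 0.49. Kcnj10, the potassium channel of endfeet, rose in KO (0.59), and Aqp11 fell by 0.65 in WT.

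Gfap, the intermediate filament protein of mature and reactive astrocytes, went the other way. It was at 3.79, 3.12, 3.96, 3.87 and 3.97 log2 CPM in libraries 1 to 5 of N_WT and at 3.2, 3.06, 2.91, 3.69 and 3.52 in OGD_WT. The groups overlapped through N_WT library 2. Gfap was lower under OGD in all 5 numbered pairs, and the log2 fold change was -0.47 (95% confidence interval -0.85 to -0.09, adjusted p = 0.0434 by limma). KO libraries were at 3.38, 3.5, 3.54, 3.26 and 3.98 in N and at 3.4, 2.87, 3.26, 3.53 and 2.91 under OGD. There Gfap was lower in 3 of 5 pairs, and the log2 fold change of -0.34 (-0.7 to 0.02) had an adjusted p of 0.123 in limma. Gfap rested on 42 to 251 reads a library, the fewest of the markers at the low end, and its call in WT was lost in 10 of 23 alternative fits, 7 of which left out a single library (OGD_WT 1, 2 or 3, or N_WT 1, 3, 4 or 5 in turn gave limma adjusted p of 0.0773 to 0.136). The WT change was -0.82 with libraries 1 and 3 alone and -0.23 with libraries 2, 4 and 5 alone.

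Other filament genes split in the same comparisons. Vim, the filament protein of radial glia and immature astrocytes, rose by 1.25 in WT and 1.28 in KO on the log2 scale. Nefh, a neurofilament subunit, stood at -1.36 in WT and -1.0 in KO, and Synm, which encodes synemin, at -0.84 and -0.75, and both passed the test. Of 9 filament genes other than Gfap, 1 was called higher in each genotype, with 3 called lower in WT and 5 in KO. Within each library the reads of Gja1 over those of Gfap, a ratio that needs no scaling between libraries and was formed after the values had been seen, had a log2 of 1.77 to 2.48 in N_WT and 2.94 to 4.09 in OGD_WT. It was 1.59 to 2.52 in N_KO and 3.05 to 3.95 in OGD_KO, so that no OGD library overlapped an N library of either genotype. Gja1 separated the groups by itself and Gfap was the marker that fell, so this separation adds no support of its own. Of the other ratios formed, Apoe over Clu overlapped in KO (1.76 to 2.39 in N_KO, 1.69 to 3.46 in OGD_KO), and the rest did not overlap within a genotype. Some gaps were narrow, such as that of Gja1 over Aqp4 in KO (up to 1.34 in N_KO, from 1.36 in OGD_KO). Each of these ratios set a marker that rose over a marker not called higher, so they add no support of their own either.

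**Figure D2:**
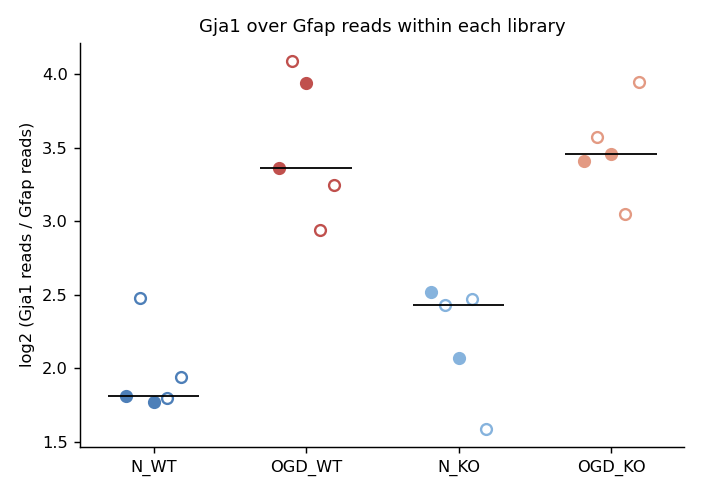
Log2 ratio of Gja1 reads to Gfap reads (vertical axis) within each library, by group, with the median as a line; filled points are libraries of batches 1, 2 and 3.2 and open points those of batches 3.1 and 3.3. All 10 OGD libraries lie at 2.94 or above and all 10 N libraries at 2.52 or below.

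Sox9, a transcription factor of neural stem cells and of the astrocyte lineage, rose under OGD. It was at 7.06, 7.5, 7.01, 7.08 and 6.22 log2 CPM in libraries 1 to 5 of N_WT and at 8.02, 7.94, 7.95, 8.19 and 7.33 in OGD_WT. Library 5 was the lowest in both groups, and Sox9 was higher under OGD in all 5 numbered pairs, with a log2 fold change of 0.91 (SE 0.2, adjusted p = 0.000856 by limma). KO libraries were at 6.78, 7.14, 6.76, 6.45 and 7.19 in N and at 7.8, 8.32, 7.89, 8.43 and 6.28 under OGD. OGD_KO library 5 was below every N_KO library, and 4 of 5 pairs were higher. The log2 fold change in KO was 0.88 (SE 0.29, adjusted p = 0.0219 by limma) and 1.25 (SE 0.17) without OGD_KO library 5. The KO call was lost in 7 of 23 alternative fits, with adjusted p of 0.0557 to 0.147, among them the fits without OGD_KO library 2 or 4 or without N_KO library 4.

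OGD_KO library 5 also had the largest share of reads on mitochondrially encoded genes, 37.5%, against 22.7% to 26.5% in the other OGD_KO libraries, 17.4% to 28.5% in OGD_WT, 13.3% to 16.9% in N_WT and 14.0% to 20.8% in N_KO. The share was thus higher under OGD in both genotypes, and its part in the changes of the markers was not tested. The deposited values are not scaled by library totals alone. Unlogged, they summed to 886324 to 923861 a library in N_WT and to 1081785 to 1148652 in OGD_WT. In KO the sums were 895220 to 920637 in N_KO and 1058852 to 1177551 in OGD_KO. Scaling by library totals, which counts the mitochondrial reads in, moved the median log2 fold change of all genes to -0.3 in WT and -0.28 in KO. The median of the markers was then 0.37 in WT and 0.3 in KO, with 5 called higher and 1 lower in WT and 2 higher and 1 lower in KO. Of all genes, that scaling called 11.4% higher and 40.4% lower in WT and 10.3% and 36.8% in KO, and library totals without the mitochondrial genes called 16.7% and 27.6% in WT and 16.5% and 24.9% in KO, with 6 and 5 markers called.

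Of the other Sox genes, 12 were measured, with 5 called higher and 1 lower in WT and 7 higher and 2 lower in KO. With the replicate number as a block, 5 were called higher in each genotype. In batches 3.1 and 3.3 alone, 1 was called higher and 1 lower in each genotype. Of all genes, 8.01% were called higher there in WT and 8.28% in KO, so the Sox genes showed no clear excess in these batches. Sox21 rose by 0.96 in WT and 0.94 in KO and Sox2, which keeps neural progenitors undifferentiated, by 0.7 in both. Sox5, which acts in the specification of deep-layer neurons, fell by 1.1 (WT) and 1.09 (KO).

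Of the enzymes, Aldoc rose in both genotypes. It encodes aldolase C, the brain form of the glycolytic aldolase. N_WT libraries 1 to 5 were at 6.23, 5.89, 6.04, 5.67 and 6.23 log2 CPM and OGD_WT libraries at 6.54, 7.06, 6.75, 6.54 and 6.83. The groups did not overlap, and the log2 fold change was 0.73 (SE 0.15, adjusted p = 0.000599 by limma). In KO the values were 5.86, 6.09, 5.83, 5.32 and 6.17 in N and 6.53, 6.52, 6.53, 6.46 and 6.64 under OGD. OGD_KO libraries were nearly level (SD 0.06), and the log2 fold change was 0.68 (SE 0.16, adjusted p = 0.00211 by limma). Of the other aldolase and glycolytic genes, 4 of 6 were called higher in WT and 4 of 5 in KO, and the difference of their changes from that of Aldoc was not tested. Pfkl, a subunit of phosphofructokinase, rose by 2.07 in WT and 1.93 in KO, Pgk1 by 1.52 and 1.3, and Tpi1, which has pseudogene copies that could share its reads, by 1.19 and 0.98 (limma adjusted p = 0.0544 in WT with the replicate number as a block). Pfkp, another phosphofructokinase subunit, did not pass the test in either genotype (0.11 and 0.15).

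Aldh1l1, an enzyme of folate metabolism whose promoter is used to label astrocytes, was more uneven. In N_WT it was at 5.49, 5.91, 5.5, 5.47 and 4.71 log2 CPM and in OGD_WT at 5.87, 6.64, 6.03, 6.29 and 5.26. All 5 pairs were higher under OGD though the groups overlapped, and the log2 fold change was 0.6 (SE 0.22, adjusted p = 0.0311 by limma). The call was lost in 7 of 23 alternative fits, 4 of which left out 1 library (OGD_WT 2 or 4, N_WT 4 or 5). In KO the values were 5.43, 5.95, 5.39, 6.06 and 3.85 in N and 6.01, 5.74, 5.87, 6.06 and 5.85 under OGD. The estimate of 0.57 (adjusted p = 0.115 by limma) leaned on N_KO library 5, the low one, and was 0.2 (adjusted p = 0.353 by limma) without it. With libraries 1 and 3 alone it was 0.53 (adjusted p = 0.000265 by limma), in a fit of 2 libraries a group, the pair most alike, so that this p-value may be too small. Of 11 other genes of folate metabolism, 5 were called higher and 1 lower in WT and 6 higher and 1 lower in KO. With libraries 2, 4 and 5 alone 2 were called higher in WT and 0 in KO. Shmt1 rose by 0.87 in WT and 0.75 in KO, Shmt2 by 0.83 and 0.76 and Mthfd2l by 0.62 and 0.63.

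Apoe rose and its fellow lipid carriers did not pass the test. Apoe, the main lipoprotein that astrocytes secrete, was at 6.14, 5.79, 6.08, 6.33 and 6.01 log2 CPM in N_WT and at 6.73, 7.01, 6.69, 6.55 and 6.79 in OGD_WT. The groups did not overlap, with a log2 fold change of 0.69 (SE 0.14, adjusted p = 0.000619 by limma). KO libraries were at 5.95, 6.11, 6.14, 6.05 and 5.83 in N and at 6.66, 7.01, 6.52, 6.11 and 6.83 under OGD. OGD_KO library 4 fell within the N_KO range, all 5 pairs were higher, and the log2 fold change was 0.61 (SE 0.16, adjusted p = 0.00585 by limma).

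Clu encodes clusterin, a secreted chaperone of lipids and misfolded proteins. Its level lay between 3.92 and 4.58 log2 CPM in N_WT and between 3.96 and 4.46 in OGD_WT, a difference of 0.03 (95% confidence interval -0.3 to 0.36). In KO the range was 3.76 to 4.2 in N and 3.42 to 4.44 under OGD, a difference of -0.01 (-0.38 to 0.36). Fabp7, the fatty acid binding protein of radial glia and young astrocytes, lay between 8.42 and 9.01 in N_WT and between 8.81 and 9.37 in OGD_WT, and 4 of 5 pairs were higher in each genotype. Its log2 fold changes of 0.26 (-0.07 to 0.59) in WT and 0.27 (-0.12 to 0.66) in KO did not pass the test. With libraries 1 and 3 alone, the pair most alike, they were 0.28 (adjusted p = 0.0193 by limma) and 0.31 (0.014), p-values that may be too small. With scaling by library totals the changes were -0.02 in both genotypes.

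Genes that work with Apoe and Clu moved both ways. Lrp2, a large lipoprotein receptor, rose by 1.34 in WT and 1.73 in KO, and Abca1, the transporter that loads Apoe with lipid, by 0.64 and 0.51, the latter with a limma adjusted p of 0.0558 once the replicate number was a block. Abcg1, another lipid exporter, fell by 1.02 and 0.77, Lpl, a lipase, by 1.06 and 0.95, and the Apoe receptor Lrp8 by 0.71 and 0.61. Fabp3, a relative of Fabp7, fell by 1.05 (WT) and 1.07 (KO), and Fabp5 did not pass the test.

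**Figure D3:**
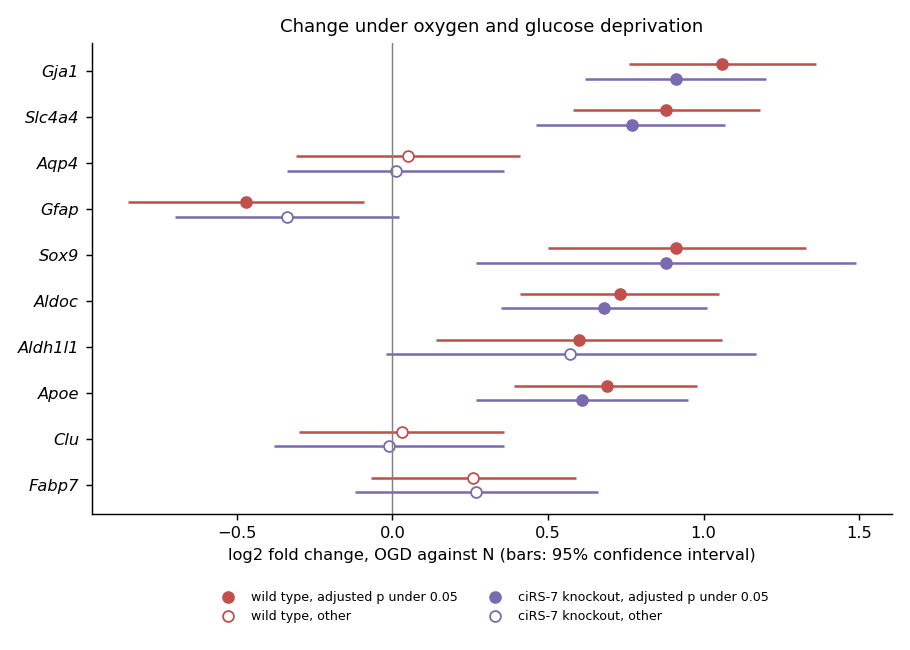
Log2 fold change of each marker, OGD against N (horizontal axis), with its 95% confidence interval; red is WT, purple is KO, and filled points have an adjusted p under 0.05. Estimates of the 2 genotypes lie side by side for every marker, from 1.06 and 0.91 for Gja1 down to -0.47 and -0.34 for Gfap.

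**Figure D4:**
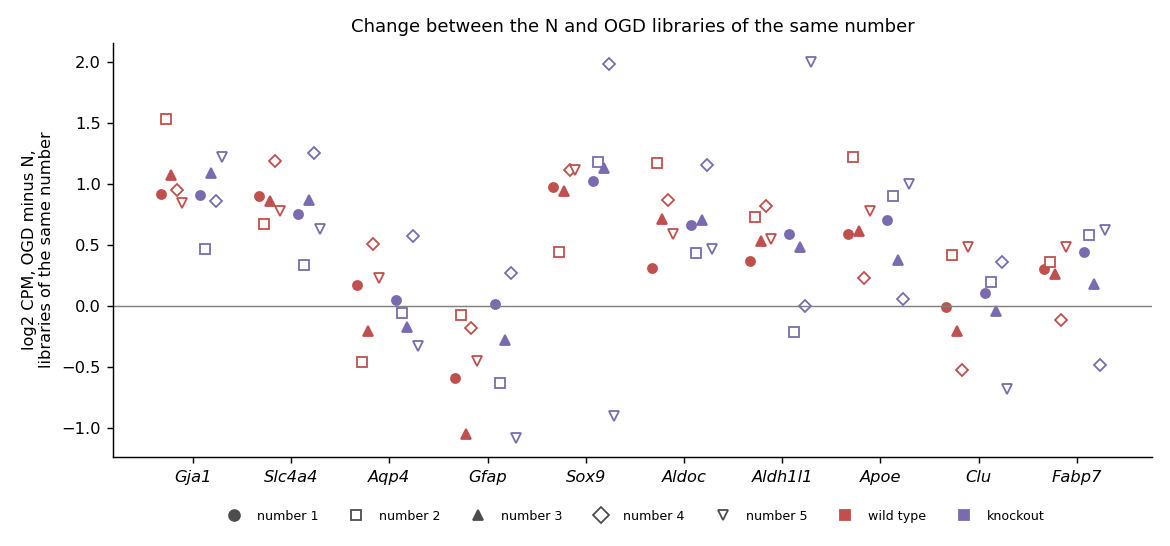
OGD minus N difference in log2 CPM (vertical axis) between libraries that share a number, for each marker and genotype; the symbol gives the number, filled for 1 and 3. Gja1, Slc4a4, Aldoc and Apoe lie above 0 in all 10 pairs, while number 5 of KO stands at -0.9 for Sox9 and at 2.0 for Aldh1l1.

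The knockout itself was not accompanied by a called difference in any marker. In normoxia 5 of 14152 genes were called between N_KO and N_WT, which is 0.0353%, and under OGD 4 of 14185 between OGD_KO and OGD_WT, 0.0282%, and none of these was a marker. Named here after their values were seen, they were Cdr1as and Cdr1os in both comparisons, Cdhr1, Gm14419 and Gm2004 in normoxia, and Sp5 and Zfp965 under OGD. These comparisons use the same libraries as those of OGD against N. At an unadjusted p under 0.05, limma had 256 and 253 genes and again 0 markers. The marker differences, KO minus WT, ran from -0.18 (Gfap, 95% confidence interval -0.55 to 0.19) to 0.07 (Gja1, -0.19 to 0.33) in normoxia. Under OGD all 10 were below 0, from -0.07 to -0.19, the largest being that of Aldoc (-0.49 to 0.1). The 10 genes were measured in the same libraries, so that this shared sign is not 10 independent observations, and the widest interval, that of Sox9, reached from -0.77 to 0.52.

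Whether the response to OGD differed between genotypes was tested on a joint log2 scale of all 20 libraries. Of 13688 genes none was called, 0.0%, and 100 had an unadjusted p under 0.05, with 0 markers among them. The KO response minus the WT response lay between -0.17 (Gja1, 95% confidence interval -0.62 to 0.29) and 0.12 (Gfap, -0.48 to 0.72). For Sox9 and Aldh1l1 the intervals ran from -0.98 to 0.89 and from -0.99 to 0.91, so that a difference as large as the response itself would not have been detectable at this spread.

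The other astrocyte genes moved much as the 10 markers did. Of the further genes looked up, 22 were measured in WT, with 15 called higher and 1 lower, and 23 in KO, with 12 higher and 1 lower, and their median log2 fold changes were 0.59 and 0.54. Fgfr3, a growth factor receptor, rose by 1.04 in WT and 1.02 in KO, Slc1a3, the glutamate transporter GLAST, by 1.08 and 0.95, and Acsbg1, an acyl-CoA synthetase, by 0.85 and 0.96. Slc7a10, an amino acid exchanger, was the gene called lower (-0.8 and -0.67), and Ntrk2 (-0.4 and -0.28) and Atp1b2 (-0.2 and -0.05) were below 0 without passing the test. With libraries 1 and 3 alone 17 were called higher in each genotype, with 3 lower in WT and 2 in KO. With libraries 2, 4 and 5 alone, where 8.01% and 8.28% of all genes were called higher, 5 were higher and 0 lower in WT and 2 higher and 1 lower in KO. Of the 30 reactive astrocyte genes looked up, only 15 were measured in each genotype, with 8 higher and 3 lower in WT and 9 higher and 3 lower in KO. Hspb1, a small heat shock protein, rose by 1.87 and 2.11, but it had 0 to 21 reads a library, so the size of its change is uncertain. Cd44, a hyaluronan receptor, rose by 1.65 and 1.77. Amigo2 and Fkbp5 fell in both genotypes, S100a10 in WT and H2-D1 in KO. With the replicate number as a block Amigo2 (limma adjusted p = 0.107) and S100a10 (0.0686) were not called in WT, and H2-D1 was (0.0371). Lcn2, Serpina3n and C3, often used to define the reactive state, were in neither table.

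Marker lists of other cells moved in the same comparisons. The lists are not separate: Slc1a3 and Vim, already named above, are also in the progenitor list and count in its sums. Radial glia and progenitor genes had 10 of 21 higher and 2 lower in WT and 11 higher and 1 lower in KO, led by Hes1, a Notch target, with 1.36 and 1.45. Their summed level was 2960 to 4110 CPM in N_WT and 5620 to 6250 in OGD_WT, and 3050 to 3790 in N_KO and 5040 to 6980 in OGD_KO. Of 12 genes of dividing cells 11 rose in each genotype, with Ccnb1 at 1.49 and 1.58, Bub1 at 1.31 and 1.43 and Mki67 at 1.25 and 1.28. They summed to 540 to 713 CPM in N_WT, 1010 to 1660 in OGD_WT, 528 to 774 in N_KO and 1170 to 1500 in OGD_KO. Neuron genes had 7 of 14 lower in WT and 8 in KO and none higher, with Slc17a7, the vesicular glutamate transporter, at -1.69 and -1.62, Syt1 at -1.21 and -1.46 and Gap43 at -0.81 and -0.89. They summed to 6580 to 7910 CPM in N_WT, 4160 to 7200 in OGD_WT, 6950 to 7280 in N_KO and 4340 to 5910 in OGD_KO. With libraries 2, 4 and 5 alone 6 and 4 progenitor genes and 8 and 7 genes of dividing cells were called higher in WT and KO, against 8.01% and 8.28% of all genes. In the same fits 2 and 4 neuron genes were called lower, against 8.93% and 8.01% of all genes. The part of any of these in the changes of the astrocyte markers was not tested.

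Among oligodendrocyte lineage genes, Cspg4 was called higher in both genotypes, Olig2 and Sox10 were called higher in KO, and Mbp and Gpr17 were called lower in WT. Vascular and fibroblast genes were low, at 13.4 to 28.4 CPM in sum in the 4 groups, with the endothelial markers Pecam1 and Cldn5 in neither table, and Acta2 (1.42 and 1.94), Kdr (0.6 and 1.11) and Cspg4 (0.66 and 0.49) were called higher in both genotypes, with Pdgfrb lower in WT. Cd68, a lysosomal protein of microglia and macrophages that was in the KO table, rose there (0.8). With the replicate number as a block Olig2 in KO (limma adjusted p = 0.0838) and Kdr in WT (0.064) were not called. In the comparisons of genotype 0 genes of these lists were called.

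**Figure D5:**
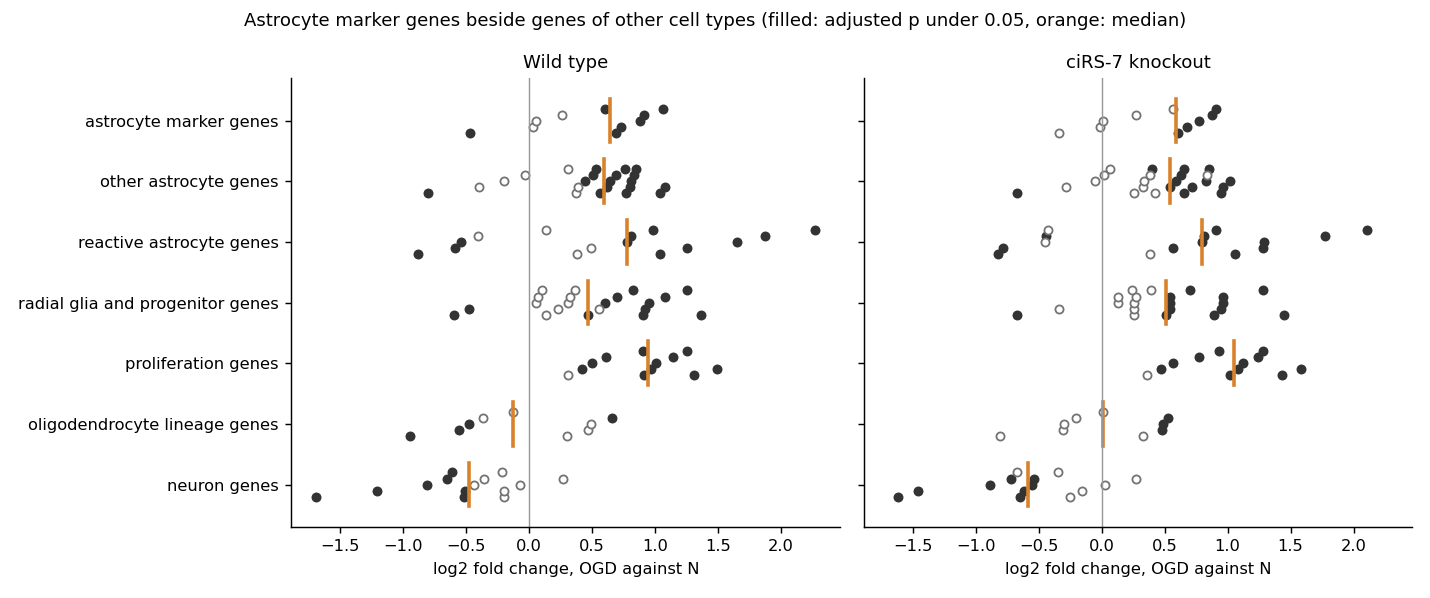
Log2 fold change under OGD (horizontal axis) of every measured gene of 7 lists in WT and KO; filled points have an adjusted p under 0.05 and the orange line is the median of the list. Astrocyte marker medians of 0.64 and 0.59 lie between those of neuron genes (-0.48 and -0.59) and of proliferation genes (0.94 and 1.05).

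Levels of different genes were compared per kilobase of exon, with lengths from GENCODE M21 on mm10. In N_WT Fabp7 was the highest at 360 ± 53.6 CPM per kb (SD, n = 5), ahead of Sox9 (31.5 ± 9.16), Apoe (31.4 ± 4.25) and Aldoc (19.8 ± 3.19). Sox9 and Apoe did not differ beyond their spread. Aldh1l1 (9.67 ± 2.65) and Slc4a4 (8.92 ± 1.45) overlapped in the middle, and so did Aqp4 (5.32 ± 0.689), Clu (5.17 ± 1.06) and Gja1 (4.94 ± 0.47) below them. Gfap was the lowest at 3.15 ± 0.681. In OGD_WT Sox9 was at 58.3 ± 11.8 and Apoe at 50.5 ± 6.03, and Gja1 had passed Aqp4 and Clu at 10.4 ± 1.69, against 5.64 ± 1.55 and 5.26 ± 0.83. Fabp7 (431 ± 68.7) and Gfap (2.24 ± 0.532) stayed at the ends. The order in KO had the same ends, with Fabp7 at 341 ± 69.1 and Gfap at 2.68 ± 0.574 in N_KO and 411 ± 92.0 and 2.1 ± 0.439 in OGD_KO.

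Within groups the markers did not move as a block. Once group means were taken out, the correlation of a marker with the mean of the other 9 over the 20 libraries ran from -0.01 for Aqp4 to 0.58 for Clu. Pairs of markers ran from -0.56 (Gfap with Fabp7) to 0.67 (Apoe with Fabp7). Aqp4 was also negative with Fabp7 (-0.54) and Aldh1l1 (-0.49). The genes outside the set whose deviations were most like the mean of the markers were Trappc6b (r = 0.96), Asah1 and Cpe (0.92), Mzt1, Adgrg1, Ciao2a, Pbxip1 and Ppp2r2b (0.91), and Mmgt1 and Rab2a (0.9), and none of them was on an astrocyte list. Without OGD_KO library 5, which had the lowest marker mean at -0.4, these were 0.81 to 0.93. These correlations used levels scaled by library totals, mitochondrial reads included, unlike the marker changes above. OGD_KO library 5 had 37.5% of its reads on mitochondrial genes, and the part of this share in the correlations was not tested. Libraries also share depth and batch, so these correlations are descriptions.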

How the data were processed

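The authors deposited 4 tables of log2 CPM, 1 per comparison with 10 libraries each and 14152 to 14375 genes. The build is mm10 per the submitters' processing notes, and the aligner, counting and annotation are not given in the sources used here. RNA was taken with TRIzol and libraries with a stranded total RNA kit, per the labels' protocols. No label or header mentions it, but the lowest and highest value of each gene and group of 5 lay where clipping at the 10th and 90th percentile puts them (weights 0.6 and 0.4). This was undone: whole reads then came out for at least 99.91% of values (within 0.05 reads, up to 500 reads) against 45.5% to 92.78% as deposited, and limma voom on those reads is an alternative. Each table was fitted in R 4.3.3 with limma 3.58.1 (lmFit, eBayes with trend), without block or batch. The interaction used log2 CPM of recovered reads (prior count 2) of 13688 genes, with the culture as a block (duplicateCorrelation, consensus correlation -0.169).

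N and OGD libraries of 1 number share the genotype label and the batch and were taken as pairs. Libraries 2 and 4 of a genotype share a batch too, so the batch alone does not set the pairs. Deviations of paired libraries from their group means did not move together (correlations -0.64 to 0.06 in WT and -0.79 to -0.07 in KO). In every pair a library of another number correlated better. Levels per kb used the exon union of GENCODE M21. The 10 markers, the 17 gene lists and the tests were chosen with earlier results of these data known. From each list, the up to 3 genes with the largest change called in both OGD comparisons are named. Others were named after their values were seen. Genes most like the markers were those with the highest correlation of deviations at a mean log2 CPM of at least 1. Alternatives covered clipping, block, scaling, filter, prior count, batch and each library left out. The code was tested on simulated data. Some genes of these lists are not reported here.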

Additional observations from a re-analysis of the deposited data

Results flagged for a closer look

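Gfap in N_WT library 2 was at 3.12 log2 CPM, apart from the other 4 libraries of the group at 3.79 to 3.97. Aqp4 in N_KO library 4 was at 4.35 log2 CPM, apart from the others at 5.03 to 5.3. Each was set off by a gap to its nearest neighbour above 0.71 of the whole range of its group of 5. Of 40 groups (10 markers in 4 groups) 2 stood out, and chance alone sets off about 1 in 20, which is 2 of 40.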

How the results depend on the processing

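Of the 10 markers, 7 were called in WT and 5 in KO under OGD. With the replicate block these counts were 7 and 5, and no call of a marker changed, though some calls of other listed genes did. Leaving out 1 library at a time gave 5 to 7 in WT and 4 to 5 in KO, and 0 in both genotype comparisons and the interaction. The count moved in KO to 1 in batch 3 cultures (the same libraries as batches 3.1 and 3.3, also 1) and to 3 with library totals, and in WT to 4 in batches 3.1 and 3.3, which leaves 3 against 3 libraries. Calls over all genes fell there too, to 8.01% higher and 8.93% lower in WT and 8.28% and 8.01% in KO. Splits of libraries, library totals and leaving out both libraries numbered 3 (6 and 4 called) were chosen after seeing the data. Fitted with limma voom, the recovered reads gave 6344 genes called in WT and 5872 in KO, against 6313 and 5884. No called direction turned. Gfap and Aldh1l1 in WT lost their calls in 10 and 7 of 23 fits, Sox9, Apoe, Aldoc and Slc4a4 in KO in 7, 3, 3 and 2, and Apoe in WT in 1. Depth limits Gfap and Clu most.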
